A study of Mus musculus with 6 samples.

Results

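Genes of mitosis and chromosome segregation were examined in 2 populations of sorted neurons from the embryonic mouse cortex. The set was a fixed list of 43 genes, taken by symbol and with the kinesins left out, and all 43 were found among the 20367 genes of the joined files. Every one of them had a value above 0 in all 6 libraries. The cells came from C57BL/6J embryos of heterozygous Tbr2(Eomes)-GFP mice bred with homozygous DCX-mRFP mice, and both reporters were present in all embryos used. Tbr2, encoded by Eomes, is a transcription factor of intermediate progenitors, and doublecortin (DCX) is a microtubule protein of young neurons. By sorting, cells positive for both colors were taken as neurons derived from intermediate progenitor cells (IPN), and those with red color only as non-IPN. The reporters therefore define both populations, and a non-IPN cell is a DCX reporter cell outside the GFP gate. From each population there was 1 library per embryonic day, namely E13.5, E15.5 and then E16.5. At E13.5 and E16.5, 10000 cells per population were collected and their transcriptome was amplified. At E15.5, 1000000 cells per population were used without amplification, so embryonic day cannot be told apart from cell number and amplification wherever E15.5 is involved. Levels between E15.5 and the other days are given side by side and were not compared.

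A dividing cell condenses its chromosomes with the condensin complex, attaches them to spindle microtubules at the kinetochores, and waits at the spindle assembly checkpoint until all are attached. Cyclin B with its kinase, the Polo and Aurora kinases and the chromosomal passenger complex drive these steps. The anaphase-promoting complex then marks cyclin B and securin for destruction, separase opens the cohesin rings, and the cell is cut at the midzone of the spindle. Transcripts of these genes accumulate in the G2 and M phases and are low in cells that have left the cell cycle. In the embryonic cortex the dividing cells are radial glia at the ventricle and intermediate progenitors above it, while neurons do not divide.

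Promoters of the members were read as a description of their sequence, without a test. Many genes of the late cell cycle are known to carry a cell cycle genes homology region (CHR), with the letters TTTGAA or TTTAAA, close to the transcription start, often with CCAAT boxes further upstream. RefSeq promoter windows of the GRCm38.p6 build, with 250 bases before and 50 after the start, were found for 37 of the 43 members; Cdca2, Ccna2, Aurkb, Incenp, Smc4 and Tpx2 were not among them. Both strands were searched for each motif, and motifs were allowed to overlap. A CHR motif was present in 27 of the 37 windows (73.0%), against 27.8% of the windows of all 27025 genes in the table and 25.5% of 17492 protein-coding ones. Within 50 bases of the start it was present in 23 (62.2%), against 8.2% of all genes. A CCAAT box was present in 27 (73.0%), against 37.9% of all genes, and 24 windows (64.9%) held both, against 10.9%. These are matches of letters and say nothing on whether a factor binds there. In each of the first 4 role groups described further on, the member with the highest summed level among those with a CHR motif is printed here, 5′ to 3′ on the strand of the gene, with the CHR motif and CCAAT box of either strand in capitals. Mki67 lies at chr7:135716330-135716629 on the minus strand, Ccnb1 at chr13:100786437-100786736 on the minus strand, Birc5 at chr11:117848987-117849286 on the plus strand and Bub1b at chr2:118597961-118598260 on the plus strand.
Mki67: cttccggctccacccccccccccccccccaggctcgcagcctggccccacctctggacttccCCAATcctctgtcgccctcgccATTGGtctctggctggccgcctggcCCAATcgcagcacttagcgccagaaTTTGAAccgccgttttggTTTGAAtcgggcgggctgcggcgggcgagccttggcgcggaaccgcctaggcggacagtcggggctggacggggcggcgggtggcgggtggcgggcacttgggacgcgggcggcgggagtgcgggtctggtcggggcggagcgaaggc
Ccnb1: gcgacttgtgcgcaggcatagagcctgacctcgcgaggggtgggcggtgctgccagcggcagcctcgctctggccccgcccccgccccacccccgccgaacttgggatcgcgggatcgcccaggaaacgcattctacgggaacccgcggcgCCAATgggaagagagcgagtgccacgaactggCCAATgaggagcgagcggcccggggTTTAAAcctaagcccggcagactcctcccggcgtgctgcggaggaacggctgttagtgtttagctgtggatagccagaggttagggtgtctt
Birc5: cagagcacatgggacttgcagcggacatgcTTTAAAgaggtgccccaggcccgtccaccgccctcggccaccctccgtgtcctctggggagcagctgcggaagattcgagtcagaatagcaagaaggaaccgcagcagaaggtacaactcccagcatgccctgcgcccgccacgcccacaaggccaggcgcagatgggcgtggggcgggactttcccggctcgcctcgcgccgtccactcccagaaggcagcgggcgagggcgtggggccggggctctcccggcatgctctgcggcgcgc
Bub1b: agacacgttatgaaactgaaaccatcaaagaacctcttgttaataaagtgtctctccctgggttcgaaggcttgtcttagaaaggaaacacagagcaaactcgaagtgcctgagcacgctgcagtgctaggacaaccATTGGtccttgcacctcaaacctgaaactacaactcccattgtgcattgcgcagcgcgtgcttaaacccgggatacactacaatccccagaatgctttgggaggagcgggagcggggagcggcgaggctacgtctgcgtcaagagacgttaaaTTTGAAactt
The Ccnb1 window held TTTAAA with its first base 42 bases before the start and CCAAT boxes 99 and 67 bases before it. In Mki67 a pair of TTTGAA copies began 116 and 98 bases before the start, downstream of 3 CCAAT boxes. The TTTAAA of Birc5 lay 220 bases before the start with no CCAAT box in the window, and the TTTGAA of Bub1b began 40 bases after the start. The windows thus differed in where the letters lay, and only that of Ccnb1 had the CHR motif within the 50 bases upstream of the start. A CHR motif was present in 20 of 27 windows of genes that fell between E13.5 and E16.5 in the test described below, and in 7 of 10 windows of those that did not pass it.

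The unit CPM stands for the value of a gene per 1000000 of the sum of its column in the deposited files. Column totals ran from 12583033 to 32522834, and, as the deposited values are scaled, the depth in reads is not known. Hemoglobin genes made up 4.92% of the total in non-IPN at E13.5 and at most 0.0275% in the other libraries. Differences were taken on log2(value + 1) of the deposited values, so differences of low genes are understated. On this scale the median of all genes between populations was 0.00 at each day, whereas on CPM, over the 12710 genes above 0 in every library, it was -0.07 on the first 2 days and -0.16 at E16.5.

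Levels of marker genes were read for the labelled cell types. Eomes was at 437, 102 and 98.4 CPM in IPN on days E13.5, E15.5 and E16.5, against 214, 72.5 and 72.0 CPM in non-IPN. Dcx was at 1392, 2863 and 3270 CPM in IPN, against 856, 4643 and 4448 CPM in non-IPN. Both reporter genes were thus present in both populations on every day. As their reporters gated the cells, this does not test whether the cells were neurons. Between populations neither Eomes (0.79 ± 0.22, adjusted p = 0.101) nor Dcx (-0.01 ± 0.26) passed in the limma fit described below. Levels of microglia and erythroid genes in non-IPN are given further on. Progenitor transcripts were also present: the summed level of 12 radial glia genes was 1259, 398 and 576 CPM in IPN, against 4686, 875 and 1234 CPM in non-IPN. Sox2, a transcription factor of radial glia, was at 21.8, 12.7 and 12.7 CPM in IPN, against 221, 283 and 146 CPM in non-IPN.

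The mitosis genes were on the whole lower in IPN than in non-IPN at E13.5 and E15.5, and both populations held much less of their RNA at E16.5 than at E13.5. The summed level of the 43 genes was 2608, 608 and 720 CPM in IPN on days E13.5, E15.5 and E16.5, against 6046, 1141 and 946 CPM in non-IPN. The IPN sum was 0.431, 0.532 and 0.761 times the non-IPN sum on the 3 days. Relative to E13.5, the E16.5 sum was 3.62-fold lower in IPN and 6.39-fold lower in non-IPN. In these bulk samples, fewer cycling cells and less of these transcripts per cell cannot be told apart. No gene of the set reached 0, and the number of members under 10 CPM was 4, 29 and 20 in IPN and 3, 9 and 22 in non-IPN on the 3 days.

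**Figure D1:**
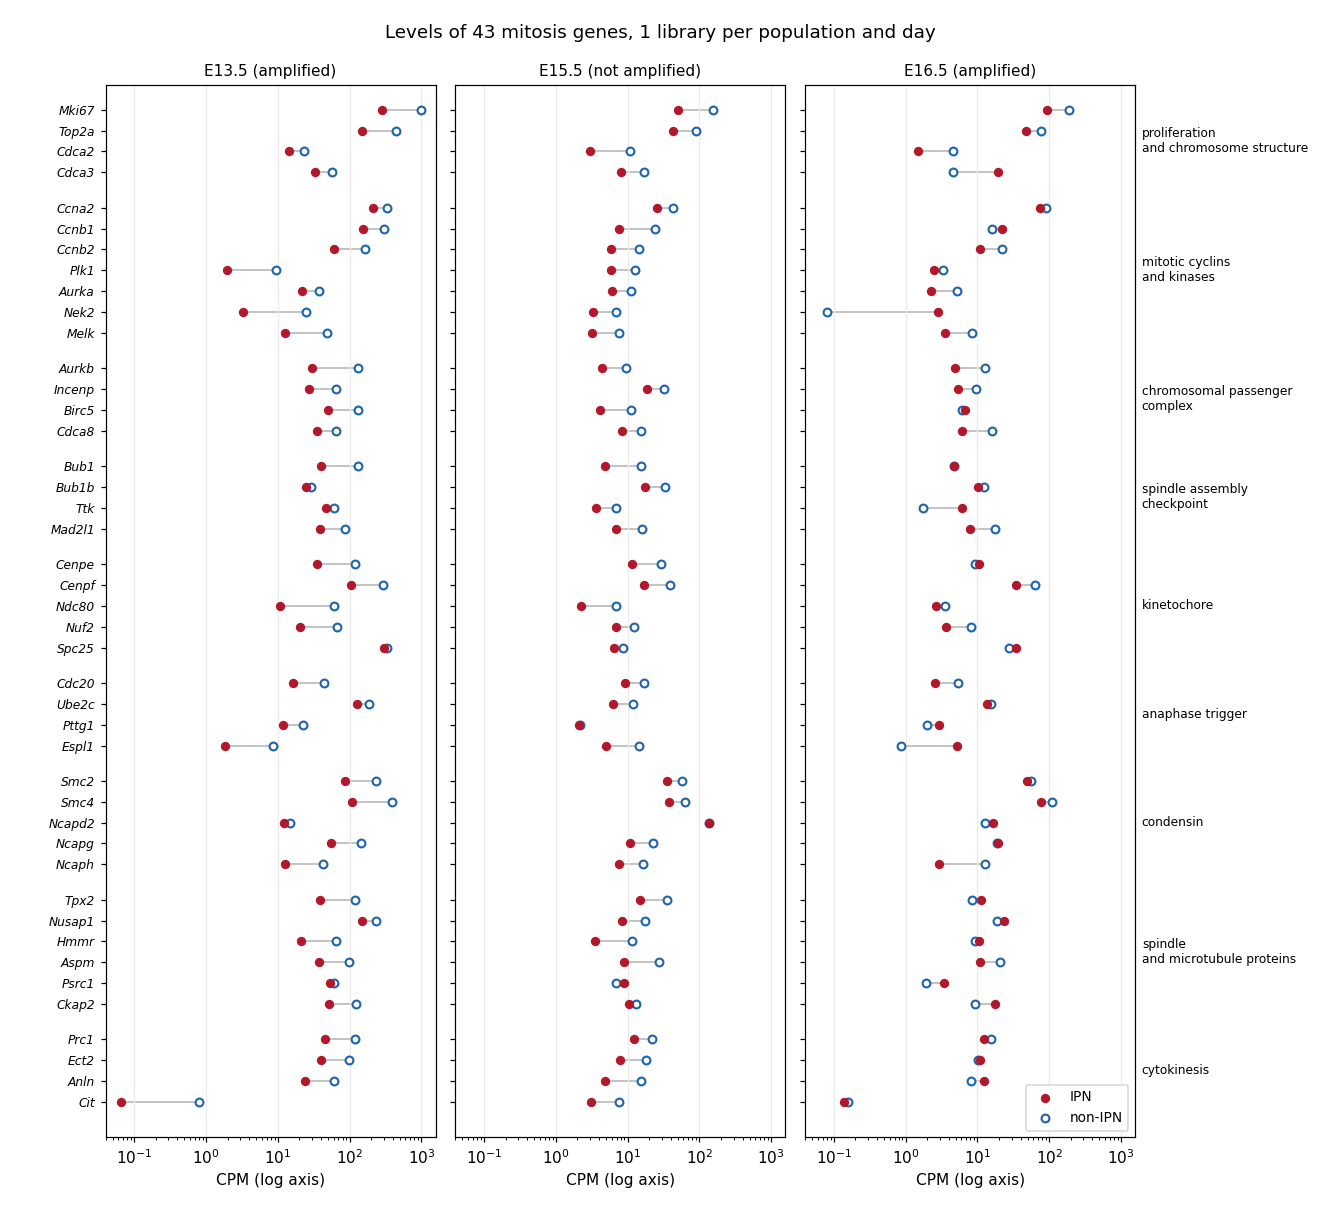
Level of each of the 43 mitosis genes in CPM (log axis) in IPN (filled) and non-IPN (open), 1 library per population and day, with genes grouped by role. At E13.5 the non-IPN point lies to the right of the IPN point for all 43 genes, whereas at E16.5 the pair is reversed for 18 of them.

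The comparison of E16.5 with E13.5 asked how these genes differed between the later and the earlier stage of neuron production, in both populations together. Of the 43 genes, 32 fell and 0 rose between E13.5 and E16.5, where 2.26% of all 19561 genes tested fell and 3.76% rose, 6.02% in all (limma with population as second factor, adjusted p under 0.05). The fitted difference was negative for all 43, with a median of -2.64 on the log2 scale, against 0.00 over all genes. For 39 of the 43 genes both E16.5 libraries lay below both E13.5 libraries, which held for 18.1% of all genes; the exceptions were Plk1, Espl1, Ncapd2 and Cit. All 4 libraries of this comparison were amplified from the same number of cells. Both libraries of a day came from the same cortices, so the p-values hold no variation between cortices of the same day. The number of calls rests on the spread, to which E15.5 contributes: 9 members passed without both E15.5 libraries, 5 without IPN at E15.5, 5 without non-IPN at E15.5, 20 without non-IPN at E13.5 and 3 without non-IPN at E16.5, and 0 with no replicate block (here the population term left out), with no filter or without limma's trend and robust options. The difference itself was negative for at least 39 of the 43 genes in each of these fits, and Psrc1, Spc25 and Ube2c passed in every fit that left out libraries.

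**Figure D2:**
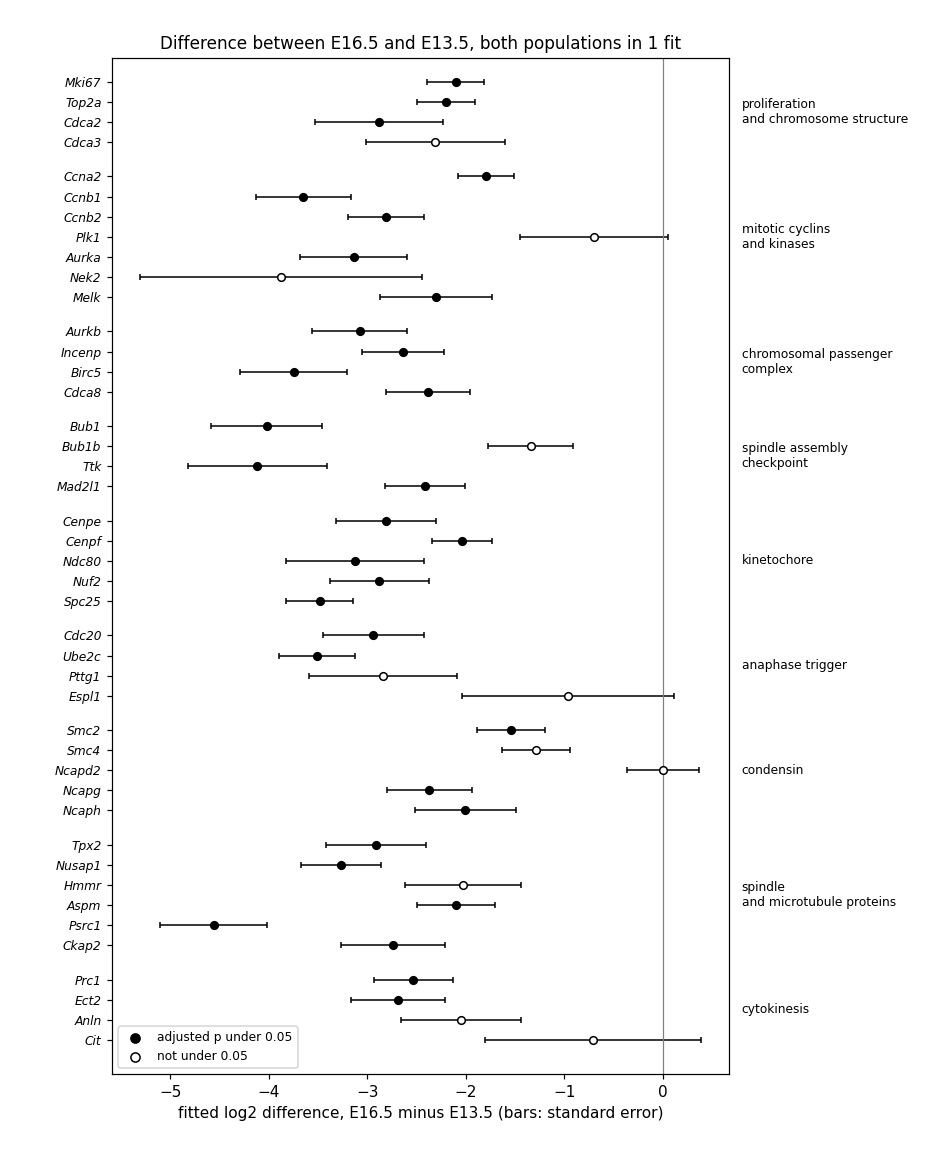
Fitted log2 difference between E16.5 and E13.5 for each mitosis gene, with its standard error, from 1 fit of all 6 libraries. Filled points mark the 32 genes with an adjusted p under 0.05, and open points the other 11, of which Ncapd2 lies at 0.

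Of 4 genes of proliferation and chromosome structure, 3 fell with day. Mki67, which encodes the Ki-67 protein at the surface of mitotic chromosomes, was at 285, 49.8 and 94.4 CPM in IPN on days E13.5, E15.5 and E16.5, against 974, 154 and 187 CPM in non-IPN. The IPN library was the lower on every day, and E16.5 was below E13.5 in both populations. Its fitted E16.5 minus E13.5 difference was -2.11 ± 0.29 (limma, adjusted p = 0.00407). Top2a, the topoisomerase that untangles sister chromatids, had 151, 43.2 and 47.8 CPM in IPN and 442, 90.5 and 77.5 CPM in non-IPN, and it fell by 2.20 on the log2 scale (SE 0.30, adjusted p = 0.00403). Cdca2, a protein that recruits a phosphatase to chromatin at mitotic exit, had 14.1, 2.98 and 1.505 CPM in IPN and 23.5, 10.7 and 4.53 CPM in non-IPN, and it fell as well (-2.88 ± 0.65, adjusted p = 0.0301). Cdca3, a substrate-recognition protein for the destruction of the kinase Wee1, stood out at E16.5, with 33.2, 8.03 and 19.2 CPM in IPN against 56.4, 16.7 and 4.61 CPM in non-IPN. Its populations changed order at E16.5, where it was higher in IPN, and its day difference did not pass (-2.31 ± 0.70, adjusted p = 0.0847).

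Of 7 mitotic cyclins and kinases, 5 fell with day. Ccnb1, which encodes cyclin B1, the activator of the mitotic kinase Cdk1, was at 155, 7.502 and 22.02 CPM in IPN, against 305, 23.8 and 15.9 CPM in non-IPN. It was lower in IPN at E13.5 and E15.5 and higher in IPN at E16.5, and its day difference was -3.65 ± 0.48 (adjusted p = 0.00364). Ccnb2, the second B-type cyclin, had 60.8, 5.90 and 10.7 CPM in IPN against 164, 14.5 and 21.9 CPM in non-IPN, and was lower in IPN on each day. Ccna2, the cyclin of S and G2 phase, was at 209.9, 26.01 and 74.5 CPM in IPN and 332, 43.2 and 91.0 CPM in non-IPN. Its populations differed by only -0.07 on the log2 scale at E16.5, and it fell by 1.80 between days (SE 0.28, adjusted p = 0.00753). The kinases Aurka, which matures the spindle poles, and Melk, a kinase high in neural progenitors, fell by 3.14 (SE 0.54, adjusted p = 0.0111) and by 2.30 (SE 0.57, adjusted p = 0.0421). Aurka was at 21.8, 6.00 and 2.26 CPM in IPN against 37.3, 11.3 and 5.25 CPM in non-IPN, and Melk at 12.6, 3.20 and 3.49 CPM against 49.1, 7.56 and 8.42 CPM. Both kinases were lower in IPN on every day.

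The other kinases, Plk1 and Nek2, did not pass. Plk1, the Polo kinase of mitotic entry and spindle poles, had 1.94, 5.84 and 2.46 CPM in IPN against 9.58, 12.7 and 3.34 CPM in non-IPN. Unlike most members it was not lower at E16.5 than at E13.5 in IPN. There it was at 36 and 30 deposited units, low values from 1 library each. Its day difference was -0.70 ± 0.75 (adjusted p = 0.651). Nek2, a kinase that separates the centrosomes, was at 3.30, 3.26 and 2.80 CPM in IPN against 24.8, 6.99 and 0.0795 CPM in non-IPN. The last of these values is 1 deposited unit, and no fold is given against it. With it the spread of Nek2 was the widest of the set, and its day difference of -3.88 ± 1.43 did not pass (adjusted p = 0.149).

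All 4 genes of the chromosomal passenger complex, which corrects faulty attachments at the inner centromere and later acts at the midzone, fell with day. Aurkb, its kinase, was at 29.5, 4.43 and 4.92 CPM in IPN against 131, 9.60 and 12.7 CPM in non-IPN, with a day difference of -3.08 ± 0.48 (adjusted p = 0.00723). Birc5 encodes survivin, the subunit that places the complex at the centromere. It had 49.5, 4.09 and 6.77 CPM in IPN against 129.6, 11.2 and 6.04 CPM in non-IPN, and a day difference of -3.75 ± 0.54 (adjusted p = 0.00505). Its populations were near each other at E16.5, at 0.38 on the log2 scale. Incenp, the scaffold, was at 26.8, 18.8 and 5.40 CPM in IPN against 65.6, 32.4 and 9.70 CPM in non-IPN, and Cdca8, which encodes borealin, at 35.4, 8.27 and 6.09 CPM against 64.7, 15.6 and 15.97 CPM. Incenp, Cdca8 and Aurkb were lower in IPN on all 3 days.

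Of 4 genes of the spindle assembly checkpoint, 3 fell with day, and Ttk and Bub1 had the second and the third largest decrease of the set. Bub1, a checkpoint kinase at the kinetochore, was at 39.6, 4.77 and 4.72 CPM in IPN against 131, 15.5 and 4.77 CPM in non-IPN. At E16.5 its populations were nearly at the same level. Bub1 fell by 4.02 between days (SE 0.56, adjusted p = 0.00442). Ttk, the kinase Mps1 that starts checkpoint signaling, had 47.1, 3.63 and 6.02 CPM in IPN against 60.2, 6.89 and 1.75 CPM in non-IPN, and fell by 4.12 (SE 0.71, adjusted p = 0.0107). Mad2l1, which encodes the Mad2 protein that holds Cdc20 inactive, was lower in IPN on every day, at 38.3, 6.89 and 7.80 CPM against 86.5, 15.6 and 17.3 CPM, and fell by 2.42 (SE 0.41, adjusted p = 0.0100). Bub1b, which encodes BubR1 of the same inhibitor complex, was at 24.6, 17.5 and 10.3 CPM in IPN against 28.7, 32.7 and 12.5 CPM in non-IPN. Its populations differed little at E13.5 and E16.5 (-0.08 and -0.07 on the log2 scale) and its day difference of -1.34 ± 0.43 did not pass (adjusted p = 0.0973).

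All 5 kinetochore genes fell with day. Spc25, a subunit of the Ndc80 complex that binds microtubules, had the smallest adjusted p of the set: it was at 306, 6.43 and 34.5 CPM in IPN against 332, 8.71 and 27.5 CPM in non-IPN, and fell by 3.48 (SE 0.34, adjusted p = 0.00111). At E13.5 it was the only member that was not lower in IPN on the deposited scale (0.03), and it was slightly lower in CPM. The other subunits of the same complex did not share this: Ndc80 was at 10.6, 2.24 and 2.67 CPM in IPN against 60.6, 6.99 and 3.58 CPM in non-IPN, and Nuf2 at 20.6, 6.83 and 3.69 CPM against 67.7, 12.2 and 8.03 CPM. At E13.5 their log2 difference between populations was -2.36 for Ndc80 and -1.57 for Nuf2. Cenpf, a large corona protein that peaks in G2, had 105, 17.2 and 34.2 CPM in IPN and 296, 38.3 and 62.8 CPM in non-IPN. Cenpe, the motor that brings chromosomes to the spindle equator, had 35.4, 11.5 and 10.53 CPM in IPN and 117, 29.4 and 9.30 CPM in non-IPN. Of these 5, Cenpf, Ndc80 and Nuf2 were lower in IPN on all days, while Cenpe and Spc25 were higher in IPN at E16.5.

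Of 4 genes that trigger anaphase, 2 fell with day. Ube2c, the enzyme that loads ubiquitin for the anaphase-promoting complex, was at 126, 6.33 and 13.6 CPM in IPN against 186, 11.8 and 15.4 CPM in non-IPN, with a day difference of -3.51 ± 0.38 (adjusted p = 0.00152). Cdc20, the activator of that complex, was at 16.5, 9.22 and 2.60 CPM in IPN against 44.1, 17.0 and 5.40 CPM in non-IPN, and its difference was -2.94 ± 0.52 (adjusted p = 0.0118). Cdc20 was lower in IPN on every day. Pttg1, which encodes securin, the inhibitor of separase, had 11.8, 2.09 and 2.94 CPM in IPN and 22.7, 2.17 and 1.99 CPM in non-IPN, and just missed the threshold (-2.84 ± 0.75, adjusted p = 0.0529). Espl1, which encodes separase itself, had 1.81, 4.95 and 5.13 CPM in IPN against 8.51, 14.5 and 0.874 CPM in non-IPN. It was thus higher at E16.5 than at E13.5 in IPN and lower in non-IPN, each from 1 library per day. At E13.5 and E16.5 Espl1 was low, at 28 and 75 deposited units in IPN and 119 and 11 in non-IPN. Its population by day term, described below, did not pass (1.39 ± 0.48 per day, limma, adjusted p = 0.164). Its day difference over both was -0.97 ± 1.08 (adjusted p = 0.665), and it was positive without non-IPN at E13.5 (0.35) or without non-IPN at E16.5 (1.25).

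The condensin genes had the smallest median day difference of the 9 role groups (-1.54), and 3 of 5 fell. Smc2 and Smc4, the ATPase arms of the ring, were at 85.2, 35.5 and 49.0 CPM and at 109, 38.1 and 76.6 CPM in IPN. In non-IPN they were at 233, 57.0 and 56.3 CPM and at 389.5, 63.1 and 109 CPM. Smc2 fell by 1.54 (SE 0.34, adjusted p = 0.0291), and Smc4 did not pass (-1.29 ± 0.35, adjusted p = 0.0570). In both, the decrease in CPM was larger in non-IPN than in IPN. Ncapg and Ncaph, non-ATPase subunits of condensin I, fell by 2.37 (SE 0.43, adjusted p = 0.0124) and by 2.01 (SE 0.51, adjusted p = 0.0473). The call was lost under 9 of 15 alternatives for Ncapg and under 13 of 15 for Ncaph. Ncapg was at 55.8, 10.6 and 19.1 CPM in IPN against 146, 22.8 and 18.7 CPM in non-IPN, and Ncaph at 12.4, 7.47 and 2.94 CPM against 42.5, 16.2 and 12.8 CPM. Ncaph kept the populations apart at E16.5, at -1.88 on the log2 scale, the lowest of the set on that day. Ncapd2, another condensin I subunit, did not share this pattern: it was at 12.2, 136 and 16.6 CPM in IPN against 14.7, 136 and 12.6 CPM in non-IPN. The high level was shared by both E15.5 libraries, for which day, cell number and amplification cannot be told apart. The difference between the amplified days was -0.0045 ± 0.37 (adjusted p = 1).

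Of 6 spindle and microtubule proteins, 5 fell with day. Psrc1, a microtubule protein that helps chromosomes to align, had the largest difference of the set (-4.56 ± 0.54, adjusted p = 0.00231). It was at 53.3, 8.89 and 3.42 CPM in IPN against 61.0, 6.95 and 1.91 CPM in non-IPN, and was higher in IPN from E15.5 on. Nusap1, which bundles microtubules at chromosomes, was at 151, 8.33 and 23.6 CPM in IPN against 229, 17.2 and 18.5 CPM in non-IPN, and fell by 3.27 (SE 0.41, adjusted p = 0.00297). Tpx2, the activator of Aurora A at the spindle, was at 39.2, 14.9 and 11.2 CPM in IPN against 118, 35.4 and 8.504 CPM in non-IPN. Ckap2, a spindle microtubule protein, was at 51.0, 10.52 and 17.9 CPM in IPN against 123, 13.05 and 9.14 CPM in non-IPN. Tpx2, Nusap1 and Ckap2 were lower in IPN at E13.5 and E15.5 and higher in IPN at E16.5. Aspm, a spindle pole protein whose loss in humans causes a small brain, kept its order on all days: it was at 37.3, 8.79 and 11.01 CPM in IPN against 96.5, 27.0 and 20.7 CPM in non-IPN, and fell by 2.10 (SE 0.40, adjusted p = 0.0151). Hmmr, a spindle protein that binds Tpx2, had 21.2, 3.51 and 10.4 CPM in IPN and 63.9, 11.5 and 9.14 CPM in non-IPN, and did not pass (-2.03 ± 0.59, adjusted p = 0.0734).

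Of 4 cytokinesis genes, 2 fell with day. Prc1, which crosslinks microtubules in the midzone, was at 45.6, 12.3 and 12.2 CPM in IPN against 118, 21.9 and 15.4 CPM in non-IPN, and fell by 2.53 (SE 0.40, adjusted p = 0.00796). Ect2, the exchange factor that activates RhoA at the cleavage furrow, was at 39.9, 7.81 and 10.7 CPM in IPN against 98.7, 18.3 and 10.3 CPM in non-IPN, and fell by 2.69 (SE 0.48, adjusted p = 0.0119). At E16.5 the populations differed by -0.12 for Prc1 and 0.28 for Ect2 on the log2 scale. Anln, the anillin scaffold of the contractile ring, had 23.5, 4.77 and 12.2 CPM in IPN and 61.6, 15.3 and 8.11 CPM in non-IPN, and did not pass (-2.05 ± 0.61, adjusted p = 0.0787). Cit, the citron kinase needed for the last steps of neural progenitor division, was at 0.0646, 3.07 and 0.137 CPM in IPN against 0.787, 7.56 and 0.159 CPM in non-IPN. Its values in the 4 amplified libraries were thus all under 1 CPM, at most 11 deposited units, and its day difference of -0.71 ± 1.10 did not pass (adjusted p = 0.745).

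**Figure D3:**
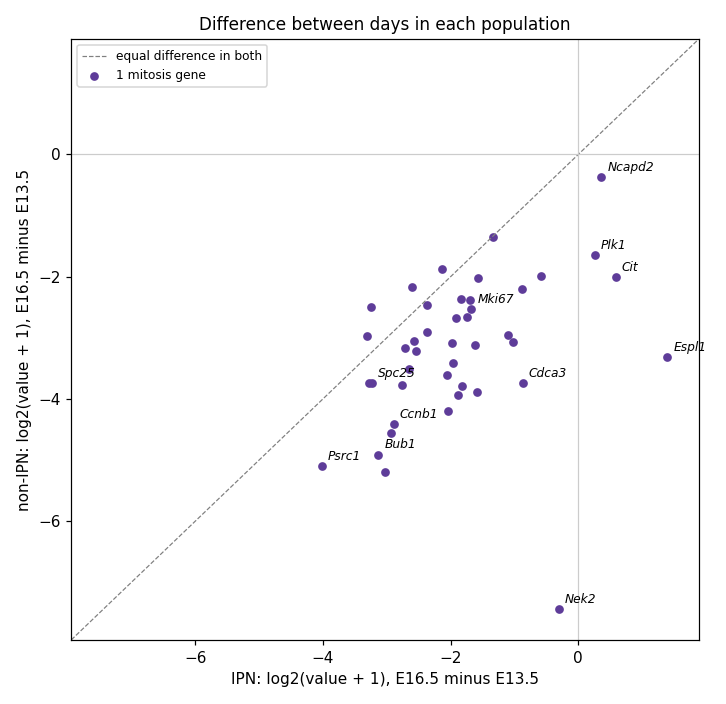
Difference between E16.5 and E13.5 in log2(value + 1) of each mitosis gene, in IPN (horizontal axis) and in non-IPN (vertical axis), each from 1 library per population and day, with a dashed line where both are equal. Of the 43 genes, 39 lie below the line, and Espl1, Cit, Ncapd2 and Plk1 lie to the right of 0 on the IPN axis.

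Taken within each population, the day difference had no replicates and was not tested. In IPN, 39 of the 43 genes were lower at E16.5 than at E13.5, with a median log2 difference of -1.97, and the 4 that were not were Espl1, Cit, Ncapd2 and Plk1. In non-IPN all 43 were lower, with a median of -3.08. The decrease was the larger in non-IPN for 39 of the 43 genes, whereas among all genes the non-IPN difference was the lower for 52.0%.

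The comparison of IPN with non-IPN asked whether neurons of the Tbr2 lineage and the remaining DCX cells differed in these transcripts, with the 3 days as the only replication. Mki67 was lower in IPN, and it was the only one of the 43 genes to pass (2.33%), with 0 higher. Of all genes, 2.41% were lower and 0.982% higher, 3.39% in all (limma, adjusted p under 0.05). The count of calls was thus near the share of all genes and is not read as a result about the set. The fitted difference of Mki67 was -1.32 ± 0.23 (adjusted p = 0.0109), with the IPN library the lower on 3 of 3 days. The call held under 8 of 17 alternatives, and the difference was between -1.60 and -1.17 under all of them. It was lost without IPN at E15.5 (adjusted p = 0.243), without non-IPN at E15.5 (0.278), without both E15.5 libraries (0.232), without both E13.5 libraries (0.0537), with a pseudocount of 10 (0.0504), on column totals (0.0522), with no filter (0.286), without limma's trend and robust options (0.331) and with no replicate block, which leaves the day term out (adjusted p = 1). The next genes were Cenpf at -1.04 ± 0.25 (adjusted p = 0.0518), Top2a at -0.96 ± 0.24 (adjusted p = 0.0656), Ncaph at -1.52 ± 0.42 (adjusted p = 0.0935), Aurkb at -1.40 ± 0.39 (adjusted p = 0.0996), Aspm at -1.16 ± 0.32 (adjusted p = 0.0998) and Ccnb2 at -1.11 ± 0.31 (adjusted p = 0.1). Each of these was lower in IPN on all 3 days and none passed. Over the set the fitted difference was negative for 37 genes and positive for 6, with a median of -0.82, against -0.02 over all genes. At an unadjusted p under 0.05, 17 of the 43 were lower (39.5%) and 0 higher, against 8.19% of all genes that were lower.

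The size of the difference was not the same on each day. At E13.5, 42 of the 43 genes were lower in IPN and Spc25 was higher, and the median log2 difference was -1.24. At E15.5, 40 were lower, Psrc1 and Ncapd2 were higher and Pttg1 was equal on the deposited scale, with a median of -1.05. At E16.5, 21 were lower, 21 higher and Cit equal, with a median of 0.00; on CPM, 25 were lower and 18 higher. The median over all genes was 0.00 on each day. In all, 21 of the 43 genes were lower in IPN on all 3 days (48.8%, against 15.2% of all genes), and 17 were lower on the first 2 days and higher at E16.5 on the deposited scale (39.5%, against 9.0%). Every role group had at least 1 gene that was lower in IPN on all days, among them Mki67, Ccnb2, Aurkb, Mad2l1, Cenpf, Cdc20, Ncaph, Aspm and Prc1. The genes furthest apart at E16.5 were Nek2 (4.39), Espl1 (2.66), Cdca3 (2.25) and Ttk (1.95), all higher in IPN and all at or under 4.61 CPM in non-IPN on that day.

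**Figure D4:**
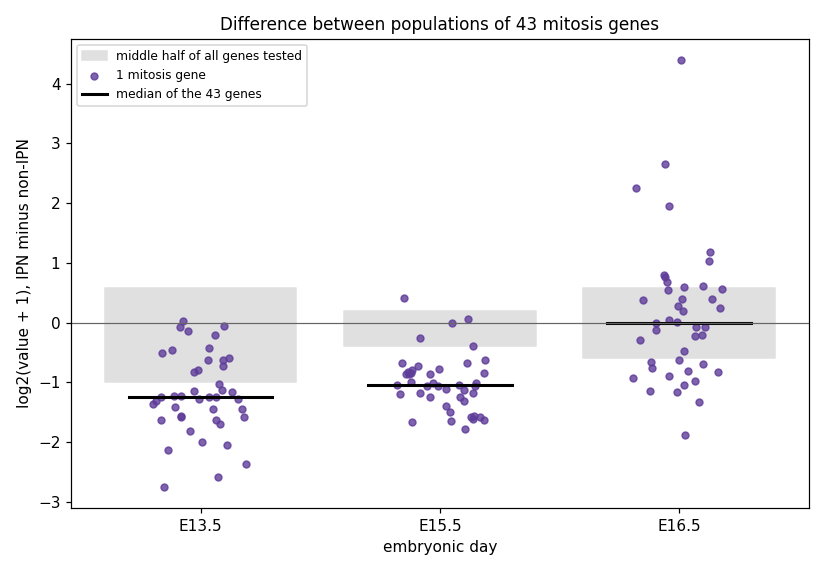
Log2 difference between IPN and non-IPN of each mitosis gene on each day (points), with the median of the 43 genes (line) and the range between the quartiles of all 19561 genes tested (grey). The median lies below the grey range at E13.5 and E15.5 and at 0 at E16.5.

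Whether the difference between populations moved with day was tested with a population by day term. None of the 43 genes passed, where 1.3% of all genes did, 0.68% with a negative and 0.624% with a positive term (limma, adjusted p under 0.05). At an unadjusted p under 0.05 there were 8 of the 43, all with a positive term. Of all 19561 genes, 3263 were under it, 1489 of them with a negative term. As a share, the members under it were near all genes, so their number is not read as a result about the set. Those with a negative term made up 0% of the members, against 7.61% of all genes. With median-of-ratios scaling 6 members passed, and 1 did with a pseudocount of 0.5 and 1 on column totals. The calls over all 19561 genes also rose under these settings, to 1558, 530 and 906, against 255 in the main fit. The term was positive for 38 of the 43, with a median of 0.34 per day, against 0.03 over all genes, where a positive term means that IPN moved up relative to non-IPN. Nek2 had the smallest adjusted p (2.16 ± 0.54 per day, adjusted p = 0.0744), which rests on its 1 unit in non-IPN at E16.5. This fit had 1 residual degree of freedom and set the unamplified E15.5 pair between the amplified ones.

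Some other genes of the pathway fell with day too. Of 103 further mitosis genes, among them centromere, cohesin, anaphase-promoting complex and regulator genes, 99 were found. Between E13.5 and E16.5, 31 of the 99 fell (31.3%) and 0 rose, against 2.26% and 3.76% of all genes. The median was -1.50, with a positive difference for 19. The largest fitted decreases among those that passed were of Pmf1, a kinetochore protein (-4.87 ± 0.94, adjusted p = 0.0159), Esco2, the cohesin acetyltransferase (-4.05 ± 0.93, adjusted p = 0.0326), and Cep55, an abscission protein (-4.02 ± 0.62, adjusted p = 0.00703). For Pmf1 and Esco2 these rest on low values: Pmf1 was at 2.13, 4.70 and 0 CPM in IPN against 5.29, 8.04 and 0.159 CPM in non-IPN, and Esco2 at 8.40, 2.00 and 1.64 CPM against 29.96, 4.88 and 0.556 CPM. Cep55 was at 25.7, 2.64 and 1.505 CPM in IPN against 46.6, 9.86 and 3.34 CPM in non-IPN. Between populations Cdca7, a chromatin protein of cycling cells, was lower in IPN (-2.17 ± 0.39, adjusted p = 0.0118), at 9.89, 14.1 and 15.9 CPM in IPN against 92.7, 78.4 and 37.5 CPM in non-IPN, and no other passed. That is 1.01% of the 99 genes, below the 2.41% of all genes that were lower in IPN. For the population by day term, Mybl2, a transcription factor of late cell cycle genes, was positive (2.22 ± 0.47, adjusted p = 0.0343) and Fzr1, an activator of the anaphase-promoting complex, negative (-1.52 ± 0.30, adjusted p = 0.0236). Of all genes, 1.3% passed for this term. These 2 terms also rest on low values. Mybl2 was at 0.452, 3.51 and 6.77 CPM in IPN against 8.51, 5.84 and 0.874 CPM in non-IPN. Fzr1 was at 8.85, 81.9 and 7.66 CPM in IPN against 0.501, 95.7 and 9.85 CPM in non-IPN. Of 30 genes of S phase, 11 fell (36.7%) and 0 rose with day and 4 were lower in IPN (13.3%), against the same shares of all genes. Of 9 cyclin-dependent kinase inhibitors and genes of cell cycle exit, 1 fell and 1 rose with day and 0 differed between populations, too few to read as a result about the list.

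Markers of other cells were read in the same fits. Of all genes, 2.26% fell and 3.76% rose with day, and 2.41% were lower and 0.982% higher in IPN. Between days, 2 of 12 radial glia genes fell and 0 rose, among them Vim (-2.89 ± 0.32, adjusted p = 0.00165), an intermediate filament gene at 774, 137 and 149 CPM in IPN against 2122, 131 and 238 CPM in non-IPN, while Sox2 did not pass (-0.81 ± 0.36, adjusted p = 0.226). Of 10 intermediate progenitor genes, 5 fell and 0 rose, with Eomes at -1.98 ± 0.27 (adjusted p = 0.00437), and their summed level was 1936, 562 and 913 CPM in IPN against 1919.5, 386 and 662 CPM in non-IPN. Between populations, 2 of 12 radial glia genes were lower in IPN, with Sox2 at -3.64 ± 0.29 (adjusted p = 0.000144). All 10 microglia and macrophage genes found were lower in IPN, at a summed level of 5.04, 2.28 and 1.78 CPM in IPN against 904, 911 and 458 CPM in non-IPN, and Csf1r, their growth factor receptor, was at 0.840, 0.277 and 0.410 CPM against 118, 238 and 71.7 CPM. Of 8 genes of ganglionic eminence progenitors, 7 could be tested and 2 were lower in IPN, at a summed level of 26.8, 33.1 and 36.7 CPM against 387, 1710 and 822 CPM. Of 11 erythroid genes 1 was lower in IPN, at a summed level of 6.14, 58.0 and 12.9 CPM against 49262, 277 and 17.5 CPM, and Hbb-y was at 2.91, 0.430 and 1.85 CPM against 22799, 28.6 and 8.11 CPM. Of 11 pan-neuronal genes found, 5 rose and 0 fell with day, at a summed level of 4677, 9394 and 6925 CPM in IPN against 2154, 10463 and 7767 CPM in non-IPN. The neuron types differed between populations as well: 9 of 10 interneuron genes were lower and 0 higher in IPN, at a summed level of 23.3, 55.3 and 48.2 CPM in IPN against 1029, 3412 and 2151 CPM in non-IPN, and 7 of 10 projection neuron genes were higher and 0 lower, at 4162, 5580.3 and 5472 CPM against 651, 817 and 2823 CPM. With day, 1 of 10 microglia and macrophage genes fell, 2 of 10 interneuron genes rose, and 0 of 11 erythroid genes passed. The population by day term was positive and passed for 7 of 11 erythroid and 3 of 12 radial glia genes, against 0.624% of all genes. It was negative and passed for 1 of 10 interneuron and 1 of 10 projection neuron genes, against 0.68%. The part of these cells in the differences of the mitosis genes was not tested.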

How the data were processed

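RNA sequencing was analysed in 6 libraries, 1 per population and day. The submitters' processing notes name TopHat 1.2.0, CASAVA 1.9, SAMtools 0.1.18, edgeR and the build mm9. What each tool did, and how reads were counted, annotated and scaled, is not given in the sources used here. The authors deposited whole numbers per gene symbol, treated here as a signal scaled from read counts, because upper quartiles were 1501 to 1501.5 at E15.5 and 438 to 444 in the amplified libraries despite unequal totals. Count models were therefore not used, and no counting interval is given. Files were joined by symbol; 3 symbols listed more than once were left out. Of the remaining 20367 genes, the 19561 with any value above 0 were tested.

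Differences were fitted with limma 3.58.1 (R 4.3.3), with its trend and robust options, on log2(value + 1). The model had population and day as factors with 2 residual degrees of freedom (median prior 8.26); p-values were adjusted by Benjamini-Hochberg over all genes tested at a threshold of 0.05. The population by day fit had 1 residual degree of freedom (median prior 14.55). The spread of each gene comes from how far its population difference varied over the 3 days, and the day comparison rests on the same spread. This spread holds no variation between cortices or preparations of the same day. The day p-values therefore contrast 1 set of cortices per day and can be too small for a difference between days in general. Day also pairs the libraries, since per the labels' protocols the same cortices gave both populations of a day. Deviations of the pair from the means of their populations correlated at 0.56, 0.83 and 0.43, against -0.63 to 0.29 between different days. As these deviations also hold the day and the preparation that a pair shares, they cannot show the part of the shared cortices. The labels name no separate animals or cultures, so p-values measure only the spread between these libraries. The script was tested on simulated data. Every member is named, of other mitosis genes the 3 called with the largest difference per direction, and of other lists the defining markers and summed levels. The members and lists were chosen with earlier results of these data known. Alternatives were another pseudocount, other scalings and filters, limma without its options, no pairing, and libraries left out. Leaving out 1 or both libraries of a day gives the same population difference. Likewise, leaving out 1 or both at E15.5 gives the same day difference, so such fits are not separate checks.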

Additional observations from a re-analysis of the deposited data

How the results depend on the processing

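Of 43 members lower at E16.5, 15 passed on column totals and 0 with no filter (which adds genes at 0 in every library), without the trend and robust options, or with no replicate block; with libraries left out the count ran from 3 to 32. At an unadjusted p under 0.05 there were 36, 35 and 37 lower members in the fits with 0 calls. The calls were not equally firm: they were lost under 13 of 15 alternatives for Ncaph and under 11 of 15 for Melk, Ndc80 and Smc2. For Cdca2 it was 11 of 14, and for Spc25, Ube2c and Psrc1 it was 3 of 15. For the 99 other mitosis genes the count of 31 became 14 with a pseudocount of 10, 9 on column totals, 0 under the same 3 settings, and 2 to 29 with libraries left out. Between populations, members lower in IPN numbered 2 with a pseudocount of 0.5 or a mean of at least 10 CPM and 0 with a pseudocount of 10, on column totals and under those 3 settings (0 to 1 with libraries left out); other mitosis genes numbered 2 with the mean of at least 10 CPM, 0 with a pseudocount of 10, on column totals and under those 3 settings, and 0 to 1 with libraries left out. For the population by day term, 1 member passed with a pseudocount of 0.5, 1 on column totals and 6 with median-of-ratios scaling, against 0; of other mitosis genes 5, 7 and 12 passed, against 2, with 1 at a mean of at least 10 CPM and 0 with a pseudocount of 10 or under those 3 settings. Over all 19561 genes the calls for this term numbered 530 with a pseudocount of 0.5, 906 on column totals and 1558 with median-of-ratios scaling, against 255. The population by day fit has no residual spread with a library left out, and the day difference needs both amplified days. Day differences of genes that did not pass changed sign for Ncapd2 (0.11 on column totals, 0.23 without non-IPN E13.5, 0.32 without non-IPN E16.5), Espl1 (0.35 and 1.25 without these libraries), Cit (0.28 and 0.25) and Plk1 (0.0447 without non-IPN E13.5); with libraries left out they ran from -0.32 to 0.32, -3.18 to 1.25, -1.69 to 0.28 and -1.44 to 0.0447. Without hemoglobin genes in the total, the summed level in non-IPN at E13.5 was 6360 CPM. Where no value shows it, the cause was not tested. No library has a replicate of its population and day, and the unknown depth limits what can be said of low genes such as Cit and Nek2.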
